A study of Homo sapiens with 12 samples.

Results

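Collagen chains, laminin chains and integrin subunits were followed in HK-2 cells, immortalised epithelial cells of the human renal proximal tubule, after a low dose of Aa. The members were all genes of the array annotation whose symbol is COL, a number, A and a number, or LAMA, LAMB or LAMC with a number, or starts with ITGA or ITGB. They were 86 genes with 222 probe sets, out of 19775 genes with a probe set and 54675 probe sets on the array. Of these, 42 genes had a probe set whose log2 values averaged 4 or more across the arrays and were tested, and 44 did not. The rule also takes in 8 genes that encode no integrin chain, such as binding proteins and antisense RNAs, of which 3 were tested. The 12 arrays formed 4 groups of 3, which were Aa for 48 h, control for 48 h, Aa for 24 h and control for 24 h. All cells were grown in the same DMEM and Ham's F12 mixture with glucose, EGF, hydrocortisone, insulin, transferrin, selenite, Glutamax, penicillin and streptomycin. Controls received the vehicle. The labels name neither the vehicle nor the dose and do not spell out Aa. The cells are a single line in plastic wells with no other cell type, and p-values measure the spread between arrays that the labels call biological replicates.

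Collagens are secreted proteins whose chains wind around each other into a rope-like helix. Collagen IV and the laminins, cross-shaped assemblies of an alpha, a beta and a gamma chain, build the basement membrane on which tubular epithelium rests. Integrins are membrane receptors made of an alpha and a beta chain that bind these proteins outside the cell and couple to the actin cytoskeleton inside it.

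The deposited values are log2 GCRMA values from 0.817 to 16.2, with array medians from 2.93 to 3.01 and a lowest correlation between arrays of 0.980. For arrays, their number limits the precision. All 5 epithelial markers looked for (KRT8, KRT18, KRT19, CDH1 and EPCAM) passed the filter. Their mean lay between 11.33 and 11.65 on the Aa arrays and between 11.35 and 11.68 on the control arrays at 48 h. At 24 h it lay between 11.15 and 11.31 with Aa and between 11.49 and 11.7 in controls. Of 9 proximal tubule markers with a probe set, 3 passed it (CDH6, PAX8 and SLC3A1), while LRP2, CUBN, AQP1, SLC34A1, ANPEP and GGT1 did not. CDH6, PAX8 and SLC3A1 were all called at 48 h, and the mean of the 9 tubule markers lay between 4.93 and 5.21 on the Aa arrays and between 5.42 and 5.54 on the control arrays at 48 h. At 24 h it lay between 5.13 and 5.31 with Aa and between 5.36 and 5.49 in controls, where KRT19 was the only epithelial or tubule marker called. The part of these shifts in the members' results was not tested. None of the 4 distal nephron, 5 endothelial and 4 leukocyte markers with a probe set passed, but DCN, LUM and COL1A1 of 8 fibroblast markers did. The mean of the 8 fibroblast markers lay between 5.405 and 5.507 on the Aa arrays and between 5.471 and 5.555 on the control arrays at 48 h. At 24 h it lay between 5.409 and 5.511 with Aa and between 5.562 and 5.724 in controls. In RNA from whole cultures, fewer cells with a transcript and less of it per cell cannot be told apart. The array's AFFX-M27830 control probe sets, which mark ribosomal RNA, averaged 10.53 with Aa and 9.30 in controls at 48 h, and 10.11 with Aa and 8.74 in controls at 24 h. Their part in the results was not tested.

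At 48 h, 14 of the 42 tested members (33.3%) had a Benjamini-Hochberg adjusted p under 0.05 in limma's test of Aa against control, 3 higher and 11 lower. Of all 10791 genes tested 37.8% did, 17.8% higher and 20.1% lower, so the members' share was not above that of the array. COL4A5 and ITGA2, among the 14, passed the filter through their controls, with Aa means under 4 at 48 h. Among the 40 members with both means at 4 or more, 12 passed (30%), against 37.2% of all genes of that kind. At 24 h, 5 members (11.9%) fell and 0 rose, against 12.8% of all genes lower, 10.3% higher and 23.1% in either direction. At an unadjusted p under 0.05 the shares at 24 h were 28.6% of members and 35.8% of all genes. The members' changes lay below 0 for 29 of 42 genes at 48 h, with a median of -0.12, and for 34 of 42 at 24 h, with a median of -0.20. Medians over all genes tested were -0.00089 at 48 h and -0.02 at 24 h, and 50.1% and 53% of them lay below 0. Across both times 18 members passed, and the integrin beta chain ITGB5 was the only member that passed at each. Replicates of the same number deviated together, and a fit with the replicate number as a block called 24 members at 48 h (7 up, 17 down) and 20 at 24 h (4 up, 16 down). In that fit 54.8% of all genes passed at 48 h (26.7% up, 28.1% down) and 41.3% at 24 h (18.5% up, 22.8% down). The Aa and control arrays did not overlap for 15 of 42 members at 48 h and for 15 at 24 h, against 48.4% and 40.5% of all genes.

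**Figure D1:**
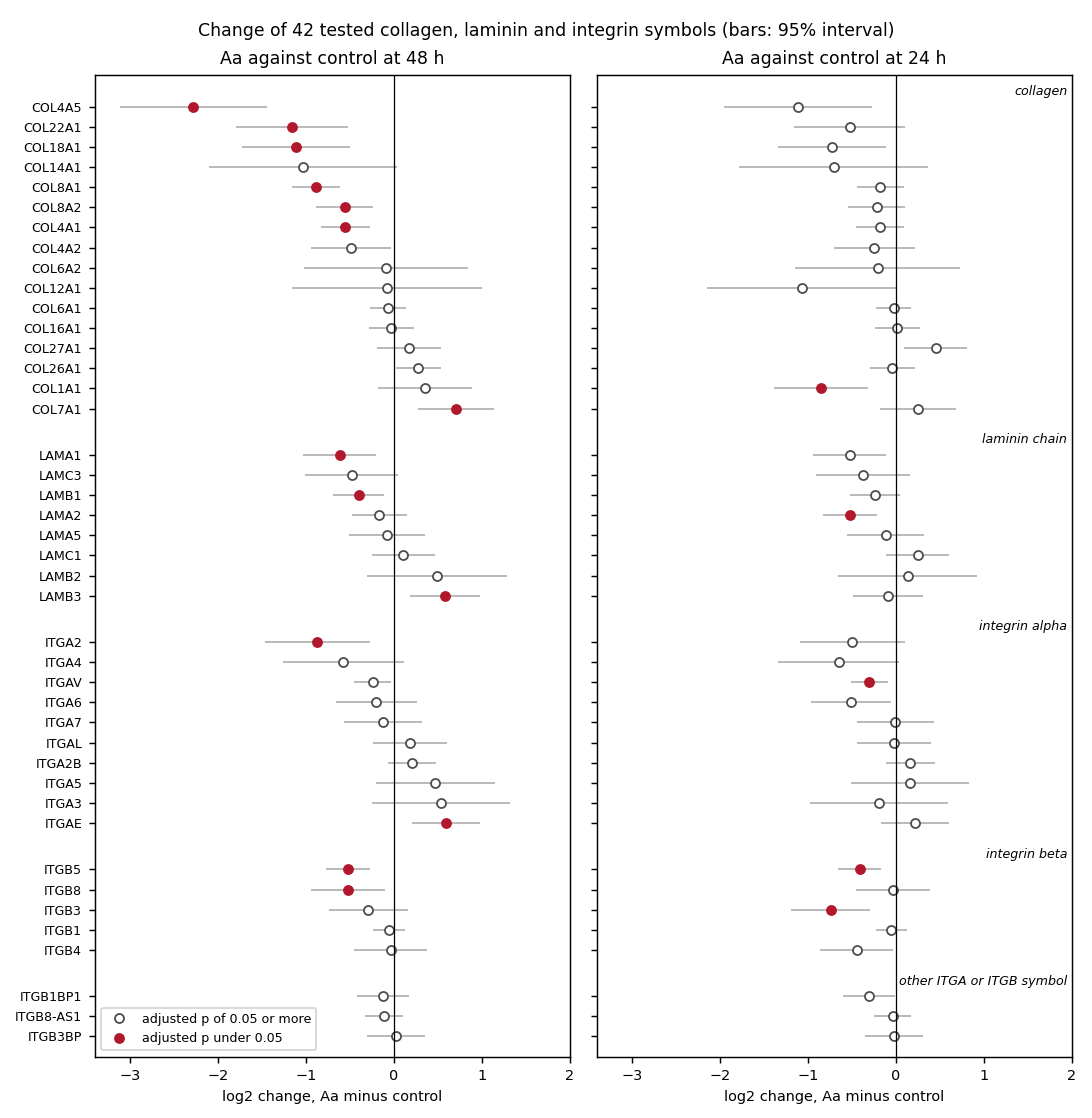
Log2 change (Aa minus control, horizontal axis) of each of the 42 tested members at 48 h (left) and 24 h (right), ordered within class by the change at 48 h, with 95% intervals from limma; filled points have an adjusted p under 0.05. COL4A5 lies farthest left at 48 h at -2.28, and more points lie left of 0 than right of it in both panels.

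Among the 16 tested collagens, 6 fell and 1 rose at 48 h, and 1 fell at 24 h, with class medians of -0.29 at 48 h and -0.21 at 24 h. For this and every other class, the shares of all genes to compare were 20.1% lower and 17.8% higher at 48 h. At 24 h they were 12.8% lower and 10.3% higher. The chains that fell at 48 h were COL4A5 and COL4A1 of collagen IV, COL8A1 and COL8A2 of collagen VIII, COL18A1 and COL22A1. COL7A1, the anchoring fibril chain, was the one that rose. COL1A1, a chain of fibrillar collagen I, was the one that fell at 24 h. Start-site sequences are shown for COL4A1, COL4A5 and COL7A1 of these genes and for COL4A2, which did not pass at either time without the block. COL4A2 is included because it shares a short stretch with COL4A1 between their starts. COL4A5 and COL7A1 had the lowest and the highest change at 48 h among the members. The sequences come from RefSeq on GRCh38.p14, and capitals mark CCAAT or GGGCGG, searched on both strands (on the other strand they read ATTGG and CCGCCC).
The stretch between the COL4A1 and COL4A2 starts is chr13:110307158-110307283 (126 bases, plus strand, the direction of COL4A2), with 1 CCAAT and 1 GGGCGG. The COL4A5 stretch is the 250 bases before its start, chrX:108439588-108439837 on the plus strand, with 2 CCAAT. The COL7A1 stretch is the 250 bases before its start, chr3:48595330-48595579 on the minus strand, with 3 GGGCGG.
COL4A1-COL4A2: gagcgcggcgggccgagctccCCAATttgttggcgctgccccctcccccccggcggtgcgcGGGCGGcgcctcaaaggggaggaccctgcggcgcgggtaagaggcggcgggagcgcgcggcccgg
COL4A5: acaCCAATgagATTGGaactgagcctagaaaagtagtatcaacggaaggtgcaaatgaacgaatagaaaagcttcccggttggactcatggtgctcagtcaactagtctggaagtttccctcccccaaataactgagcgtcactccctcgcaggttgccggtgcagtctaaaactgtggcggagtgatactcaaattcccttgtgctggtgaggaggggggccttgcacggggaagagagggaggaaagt
COL7A1: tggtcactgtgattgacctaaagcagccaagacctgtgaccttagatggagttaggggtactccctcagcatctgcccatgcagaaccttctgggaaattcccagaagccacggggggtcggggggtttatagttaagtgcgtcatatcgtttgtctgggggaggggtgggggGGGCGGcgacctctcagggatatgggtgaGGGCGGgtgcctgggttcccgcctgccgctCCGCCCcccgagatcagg
Of 35116 RefSeq promoter windows, 32% hold CCAAT and 42.6% GGGCGG in the 250 bases before the start, and 21.1% and 34.6% do in the nearest 126. A match is a run of letters and no measured binding site.

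COL4A5, a collagen IV chain whose mutation causes Alport syndrome of the kidney, had the lowest change of any member at 48 h. Its values were 3.11, 3.73 and 3.21 on the Aa arrays, against 6.15, 6.06 and 4.67 on the control arrays. At 24 h they were 3.91, 3.85 and 3.23 with Aa, against 4.36, 5.22 and 4.75 in controls. The groups did not overlap at either time, and all 6 Aa values were under 4, the value of the filter on the mean. Its change at 48 h was -2.28 ± 0.38 (SE), with an adjusted p of 0.00119 in limma's test. COL4A5 passed the filter (mean 4.35) only through its control arrays, which favours a lower value with Aa among genes so kept, and no fold is given against its dim Aa signal. The change at 24 h was -1.11 ± 0.38, with an adjusted p of 0.0569 without and 0.0157 with the replicate block.

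COL4A1 and COL4A2, the chains of the collagen IV found in every basement membrane, lie head to head on chromosome 13, and the sequence above is what separates their starts. COL4A1 had 12.12, 12.02 and 12.07 with Aa at 48 h, against 12.79, 12.50 and 12.59 in controls. COL4A2 had 12.28, 12.10 and 12.30 with Aa, against 13.06, 12.40 and 12.69. Each Aa value lay below each control value for both genes, though the control arrays of COL4A2 spread more widely. COL4A1 fell by 0.55 ± 0.13 at 48 h (adjusted p 0.00624), and its second probe set gave -0.60. COL4A2 changed by -0.49 ± 0.21 at 48 h, which missed the threshold without the block (adjusted p 0.0836) and passed it with the block (0.00366). At 24 h the changes were -0.18 for COL4A1 and -0.24 for COL4A2, with adjusted p of 0.342 and 0.443. COL4A3, COL4A4 and COL4A6, the other chains of the family, were under the filter.

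Both chains of collagen VIII, a network-forming collagen, fell at 48 h. COL8A1 had 11.10, 11.28 and 11.16 with Aa at 48 h, against 12.22, 12.18 and 11.80 in controls. Its values at 24 h were 11.80, 11.77 and 11.66 with Aa, against 12.02, 11.92 and 11.80. The gap between the groups at 48 h was more than the spread within either. COL8A1 fell by 0.89 ± 0.12 at 48 h, or 1.85-fold, with an adjusted p of 0.000434, the smallest of any member, and changed by -0.17 at 24 h (adjusted p 0.343). Its second, dimmer probe set gave -0.98 at 48 h and -0.55 at 24 h. That probe set also passed at 24 h when each was tested on its own (adjusted p 0.0409). COL8A2 had 5.79, 6.05 and 5.76 with Aa at 48 h, against 6.16, 6.55 and 6.58 in controls. It fell by 0.56 ± 0.15 (adjusted p 0.0129), and its second probe set gave -1.43. At 24 h COL8A2 changed by -0.22 (adjusted p 0.327). Its second probe set gave -0.73 at 24 h and passed when each was tested on its own (adjusted p 0.00454). The adjusted p of COL8A2 was 0.136 without replicate 3, whereas the calls of COL8A1 and COL4A5 at 48 h held in each of the 15 fits that left out a replicate number or an array. For COL4A5 this is no independent support for a fall, because it passed the filter only through its control arrays.

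COL18A1, a basement membrane collagen whose end is released as endostatin, had 8.83, 8.22 and 8.22 with Aa at 48 h, against 10.06, 9.18 and 9.38 in controls. The 24 h values were 9.25, 8.48 and 9.14 with Aa, against 9.95, 9.41 and 9.70. The groups did not overlap at either time. The fall was 1.12 ± 0.28 at 48 h (adjusted p 0.0101), and the change at 24 h was -0.73 (adjusted p 0.084 without and 0.0023 with the block). A second COL18A1 probe set of near-equal mean gave -0.16 at 48 h and 0.12 at 24 h and did not pass. COL22A1, a collagen found at tissue junctions, had 6.48, 6.47 and 5.69 with Aa at 48 h, against 7.92, 7.41 and 6.78 in controls. It fell by 1.16 ± 0.29 at 48 h (adjusted p 0.00984) and changed by -0.52 at 24 h (adjusted p 0.221 without and 0.0214 with the block). Without replicate 3 the adjusted p at 48 h was 0.105 for COL18A1 and 0.065 for COL4A1. For COL22A1 it was 0.0851 without replicate 1 and 0.0623 without replicate 2.

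COL7A1, the chain of the fibrils that anchor epithelia to the tissue below, was the only collagen higher with Aa at 48 h by the test. It had 8.01, 7.86 and 7.50 with Aa at 48 h, against 7.39, 7.06 and 6.80 in controls. After 24 h it had 8.38, 8.11 and 7.84 with Aa, against 7.96, 8.0 and 7.63 in controls. Control values were lower at 48 h than at 24 h on each array, and the Aa mean at 48 h was nearer to the control mean at 24 h than to that at 48 h. COL7A1 rose by 0.71 ± 0.20 at 48 h, or 1.63-fold (adjusted p 0.0166), and its second probe set gave 1.04. The change at 24 h was 0.25, with an adjusted p of 0.395 without and 0.0318 with the block. At 48 h the call ended without replicate 1 (adjusted p 0.0598), replicate 2 (0.132), the first Aa array (0.0661) or the third control array (0.0592).

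COL1A1 was the collagen that passed at 24 h and not at 48 h. It had 8.73, 8.20 and 8.03 with Aa at 48 h, against 8.07, 8.13 and 7.72 in controls, where the groups overlapped. At 24 h it had 7.99, 7.73 and 7.15 with Aa, against 8.70, 8.54 and 8.19 in controls, where they did not. COL1A1 fell by 0.85 ± 0.24 at 24 h (adjusted p 0.0276), and its change at 48 h was 0.35 (adjusted p 0.285 without and 0.03 with the block). Of its other probe sets 1 gave -0.59 and 1 gave 0.12 at 24 h, and neither passed. The call at 24 h ended without replicate 1 (adjusted p 0.0866), 2 (0.138) or 3 (0.0691), and without the third Aa, first control or second control array of that time (up to 0.0994). COL1A2, the partner chain in collagen I, was under the filter, with group means of 2.90 with Aa and 2.91 in controls at 48 h.

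The remaining 8 tested collagens did not pass at either time without the block. COL14A1, which decorates collagen fibrils, had 9.72, 10.70 and 9.10 with Aa at 48 h, against 10.88, 11.50 and 10.25 in controls. The replicates of each group differed by more than the groups did, but Aa was lower in 3 of 3 same-number pairs at both times. Its change was -1.03 at 48 h (adjusted p 0.117 without and 0.000225 with the block) and -0.71 at 24 h (0.334 and 0.00274). Of its 3 other probe sets, 2 fell at 48 h, by 1.17 and 1.67, and the third gave -0.13. COL12A1, a related fibril-surface collagen, changed by -1.07 at 24 h (0.142 without and 0.0158 with the block) and by -0.08 at 48 h. COL27A1, a fibrillar collagen, had 9.11, 9.31 and 9.03 with Aa at 24 h, against 8.65, 9.02 and 8.41 in controls. Its change was 0.45 ± 0.16 at 24 h (adjusted p 0.0691 without and 0.0165 with the block), and 0.17 at 48 h. All COL27A1 probe sets lay above 0 at both times. The second-brightest gave 0.66 at 24 h and passed when each was tested on its own (adjusted p 0.0161). COL6A1 and COL6A2, chains of the beaded filaments of collagen VI, changed by -0.07 and -0.09 at 48 h, and their partner COL6A3 was under the filter. COL16A1 and COL26A1 changed by -0.03 and 0.28 at 48 h.

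**Figure D2:**
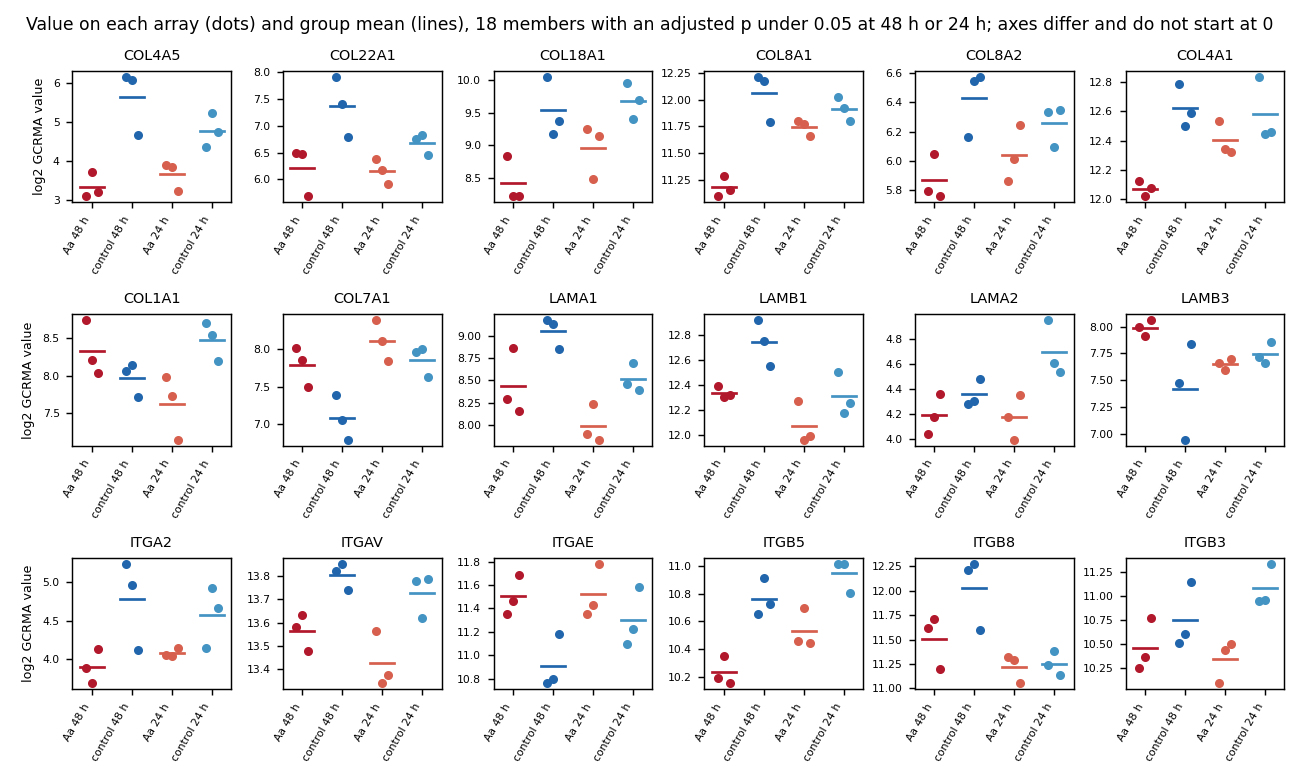
Log2 GCRMA value of each array (dots, 3 per group) and group mean (lines) for the 18 members with an adjusted p under 0.05 at 48 h or 24 h; the vertical axes differ and do not start at 0. COL8A1, COL4A1 and COL4A5 show Aa arrays below all control arrays at 48 h, while COL7A1, LAMB3 and ITGAE show them above.

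Of the 8 tested laminin chains, 2 fell and 1 rose at 48 h, and 1 fell at 24 h. The class medians were -0.12 at 48 h and -0.18 at 24 h, and the block fit gave 3 down and 2 up at 48 h, 4 down and 1 up at 24 h. LAMA1, the alpha chain of the laminin of early embryonic basement membranes, had 8.29, 8.86 and 8.15 with Aa at 48 h, against 9.17, 9.13 and 8.85 in controls. Its values at 24 h were 7.90, 8.23 and 7.84 with Aa, against 8.46, 8.70 and 8.39 in controls. The groups overlapped by a single Aa array at 48 h and not at all at 24 h. LAMA1 fell by 0.62 ± 0.19 at 48 h (adjusted p 0.0243), and its change at 24 h was -0.52 (0.0659 without and 0.00509 with the block).

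LAMB1, a beta chain that joins many laminins, had 12.39, 12.31 and 12.32 with Aa at 48 h, against 12.92, 12.76 and 12.55 in controls. It fell by 0.40 ± 0.13 at 48 h (adjusted p 0.0307), and its second probe set gave -0.31. Its change at 24 h was -0.24 (0.211 without and 0.0407 with the block). LAMB3, the beta chain of the laminin under hemidesmosomes, moved the other way at 48 h. It had 8.0, 7.92 and 8.06 with Aa, against 7.47, 6.94 and 7.84 in controls, and the Aa arrays were all above the control arrays. LAMB3 rose by 0.57 ± 0.18 at 48 h (adjusted p 0.0284) and changed by -0.09 at 24 h.

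LAMA2, the alpha chain of muscle and nerve laminin, was the laminin that fell at 24 h. It had 4.17, 3.99 and 4.35 with Aa at 24 h, against 4.95, 4.60 and 4.54 in controls. These values are close to the filter. LAMA2 fell by 0.52 ± 0.14 (adjusted p 0.0214) and changed by -0.17 at 48 h. Its second probe set gave -0.04 at 24 h, so the call rests on a single probe set. LAMC1, the gamma chain of most laminins, changed by 0.11 at 48 h and 0.25 at 24 h, where the adjusted p was 0.303 without and 0.0264 with the block. Its second probe set fell by 0.56 at 48 h, so its 2 probe sets oppose each other. LAMB2, a beta chain of the mature glomerular basement membrane, changed by 0.49 at 48 h (0.315 without and 0.0095 with the block). LAMC3 changed by -0.48 at 48 h (0.139 and 0.0113) and -0.37 at 24 h (0.301 and 0.0436). LAMA5, the alpha chain of most adult epithelial basement membranes, changed by -0.08 at 48 h and -0.11 at 24 h, and LAMA4 and LAMB4 were under the filter.

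None of the laminin calls held in every fit that left out a replicate number. Over all classes, 2 of the 14 calls at 48 h and 0 of the 5 at 24 h did. The shares of all genes called at 48 h were 14.4%, 32.5% and 21.5% without replicates 1, 2 and 3, against 37.8% with every array. At 24 h they were 4.97%, 20.9% and 7.64%, against 23.1%. The adjusted p of LAMA1 at 48 h was 0.268 without replicate 1 and 0.107 without replicate 3, and 4 single arrays also ended the call (highest adjusted p 0.096). For LAMB1 it was 0.105, 0.141 and 0.0849 without replicates 1, 2 and 3, and 5 single arrays did (up to 0.109). For LAMB3 it was 0.196 and 0.094 without replicates 1 and 2, and 4 single arrays did (up to 0.0832), with a change of 0.34 without the second control array. For LAMA2 at 24 h it was 0.2 and 0.121 without replicates 1 and 2, and 3 single arrays did (up to 0.0794).

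Of the 10 tested integrin alpha chains, ITGAE rose and ITGA2 fell at 48 h, and ITGAV fell at 24 h. The class medians were 0.03 at 48 h and -0.11 at 24 h. With the block 3 rose and 3 fell at 48 h, and 1 rose and 3 fell at 24 h. ITGAE, the alpha chain of the E-cadherin receptor of intraepithelial lymphocytes, had 11.36, 11.46 and 11.69 with Aa at 48 h, against 10.76, 10.79 and 11.18 in controls. The 24 h values were 11.35, 11.43 and 11.78 with Aa, against 11.09, 11.22 and 11.59 in controls. Its Aa arrays lay above the control arrays at 48 h and overlapped them at 24 h. ITGAE rose by 0.59 ± 0.17 at 48 h (adjusted p 0.0212), and its change at 24 h was 0.22 (0.402 without and 0.0207 with the block). ITGB7, its known partner chain, was under the filter, with group means of 2.85 with Aa and 2.67 in controls at 48 h. Of the 4 leukocyte markers with a probe set, PTPRC, CD3E, CD14 and ITGB2, none passed the filter.

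ITGA2, which pairs with ITGB1 as a collagen receptor, had 3.89, 3.69 and 4.14 with Aa at 48 h, against 5.24, 4.96 and 4.12 in controls. The third control array lay at the level of the Aa arrays, so the groups overlapped. The change was -0.87 ± 0.27 at 48 h (adjusted p 0.0268) and -0.49 at 24 h (0.219). ITGA2 passed the filter (mean 4.33) through its controls, and its Aa mean at 48 h was 3.91, so its test is no independent support for a lower level. ITGA1 and ITGA11, other collagen receptor chains, were under the filter, as was ITGA10, described below.

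ITGAV, which pairs with ITGB1, ITGB3, ITGB5 and ITGB8 in receptors for fibronectin, vitronectin and latent TGF-beta, had a small shift at both times. It had 13.58, 13.63 and 13.48 with Aa at 48 h, against 13.82, 13.85 and 13.74 in controls. After 24 h it had 13.56, 13.34 and 13.38 with Aa, against 13.78, 13.62 and 13.79 in controls. All Aa arrays lay below all control arrays of their time. ITGAV fell by 0.30 ± 0.09 at 24 h (adjusted p 0.041), and its change at 48 h was -0.24 (0.0664 without and 0.032 with the block).

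ITGA3 and ITGA6 are the alpha chains of laminin receptors in epithelia. ITGA3 had 10.83, 10.20 and 10.89 with Aa at 48 h, against 10.28, 9.36 and 10.67 in controls, higher in 3 of 3 same-number pairs. Its change was 0.53 at 48 h (0.263 without and 0.00526 with the block) and -0.19 at 24 h. ITGA6 had 8.46, 8.93 and 8.53 with Aa at 24 h, against 8.91, 9.16 and 9.39 in controls, where only the second Aa array reached the control range. Its change was -0.51 ± 0.21 at 24 h (0.101 and 0.0185) and -0.20 at 48 h. ITGA5, the alpha chain of the main fibronectin receptor, changed by 0.47 at 48 h (0.252 and 0.0199). ITGA4, a receptor chain for VCAM1 and fibronectin, changed by -0.58 at 48 h (0.17 and 0.0459) and -0.65 at 24 h (0.161 and 0.0378). ITGA7, ITGAL and ITGA2B changed by -0.12, 0.18 and 0.20 at 48 h and did not pass in either fit.

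The integrin alpha calls also depended on single replicates. The adjusted p of ITGAE was 0.116 and 0.142 without replicates 1 and 2, and 3 single arrays ended its call (up to 0.0806). For ITGA2 it was 0.195 and 0.201 without replicates 1 and 2, and 4 single arrays did so (up to 0.0997). For ITGAV at 24 h it was 0.157, 0.0982 and 0.284 without replicates 1, 2 and 3, and 7 single arrays did so (up to 0.126).

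Of the 5 tested integrin beta chains, ITGB5 and ITGB8 fell at 48 h, ITGB5 and ITGB3 fell at 24 h, and 0 rose. The class medians were -0.29 at 48 h and -0.41 at 24 h, and each of the 5 changes lay below 0 at both times. Of all genes, 50.1% lay below 0 at 48 h and 53% at 24 h. ITGB5, a vitronectin receptor chain, had 10.20, 10.35 and 10.16 with Aa at 48 h, against 10.65, 10.91 and 10.72 in controls. At 24 h it had 10.46, 10.70 and 10.44 with Aa, against 11.02, 11.02 and 10.80 in controls. The groups did not overlap at either time. ITGB5 fell by 0.53 ± 0.11 at 48 h (adjusted p 0.00463) and by 0.41 ± 0.11 at 24 h (0.0235). Its 2 other probe sets did not pass: 1 gave -0.17 at both times, and the other, the only one whose name marks no shared sequence, gave 0.17 at 48 h and 0.44 at 24 h.

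ITGB3, a vitronectin and fibrinogen receptor chain, had 10.25, 10.36 and 10.77 with Aa at 48 h, against 10.51, 10.60 and 11.15 in controls. Its values at 24 h were 10.09, 10.43 and 10.49 with Aa, against 10.94, 10.95 and 11.34 in controls. The groups overlapped at 48 h and were apart at 24 h. ITGB3 fell by 0.74 ± 0.20 at 24 h (adjusted p 0.0232), and its change at 48 h was -0.29 (0.281 without and 0.0258 with the block). All 5 of its probe sets lay below 0 at both times, from -0.75 to -0.58 at 24 h and from -1.16 to -0.06 at 48 h. The dimmest is the only ITGB3 probe set whose name marks no shared sequence. Tested on its own, it passed at 48 h (-1.16, adjusted p 0.00621) and not at 24 h (-0.63, adjusted p 0.106). The call of ITGB3 at 24 h ended when probe sets with shared sequence were left out.

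ITGB8, which with ITGAV activates latent TGF-beta, had 11.61, 11.71 and 11.20 with Aa at 48 h, against 12.21, 12.28 and 11.60 in controls. The 24 h values were 11.32, 11.29 and 11.05 with Aa, against 11.24, 11.38 and 11.14 in controls. Control arrays were all higher at 48 h than at 24 h, and the Aa mean at 48 h lay between the control means of the times. ITGB8 fell by 0.52 ± 0.19 at 48 h, with an adjusted p of 0.0493 at the edge of the threshold, and changed by -0.03 at 24 h. Its second, dimmer probe set fell by 1.00 at 48 h and by 1.15 at 24 h.

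ITGB1, the beta chain of most matrix receptors, had 13.64, 13.64 and 13.61 with Aa at 48 h, against 13.74, 13.64 and 13.69 in controls. Its change was -0.06 ± 0.08 at 48 h and -0.05 ± 0.08 at 24 h, with adjusted p of 0.594 and 0.71. ITGB4, the hemidesmosome laminin receptor chain, had 7.15, 7.23 and 6.67 with Aa at 24 h, against 7.68, 7.37 and 7.32 in controls, with no overlap. It changed by -0.44 ± 0.19 at 24 h (adjusted p 0.116) and by -0.04 at 48 h. The adjusted p of ITGB5 was 0.0615 and 0.0531 without replicates 1 and 3 at 48 h, and 0.252 and 0.123 at 24 h, where 4 single arrays also ended the call (up to 0.0826). For ITGB3 at 24 h it was 0.153 and 0.0874 without replicates 1 and 2, and 2 single arrays did so (up to 0.0913). For ITGB8 at 48 h it was 0.268 and 0.153 without replicates 1 and 2, and 10 of 12 single arrays did so (up to 0.181).

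Of the 3 tested genes that share only the start of their symbol with integrins, none passed at either time without the block. ITGB1BP1, a binding protein that restrains ITGB1, had 10.98, 11.06 and 11.20 with Aa at 48 h, against 11.08, 11.16 and 11.39 in controls. After 24 h it had 10.81, 11.01 and 11.19 with Aa, against 11.15, 11.28 and 11.51 in controls. Its change was -0.31 at 24 h (0.125 without and 0.00461 with the block) and -0.13 at 48 h, lower in 3 of 3 same-number pairs at each time. A second, dimmer ITGB1BP1 probe set rose by 0.74 at 48 h. ITGB8-AS1, an antisense RNA, had 6.66, 6.45 and 6.64 with Aa at 48 h, against 6.65, 6.86 and 6.57 in controls, where the groups overlapped. It changed by -0.11 ± 0.10 (adjusted p 0.395), and ITGB3BP changed by 0.02.

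Of the 86 members, 44 were under the filter: 27 collagens, 2 laminin chains, 8 integrin alpha chains, 2 integrin beta chains and 5 other symbols. The tested genes nearest to it were ITGAL with a mean of 4.04 and ITGA7 with 4.10, and the nearest below it were COL4A4 with 3.62 and ITGB2-AS1 with 3.58. Only 3 of the 44 reached a mean of 4 in any group, and none of them was tested. ITGA10, a collagen receptor chain, had 3.39, 5.40 and 3.74 with Aa at 48 h, against 2.22, 2.22 and 2.22 in controls. At 24 h it had 2.86, 2.21 and 2.27 with Aa, against 2.23, 2.22 and 2.23. COL11A1, a fibrillar collagen, had 2.57, 2.57 and 2.61 with Aa at 48 h, against 3.35, 3.12 and 2.92 in controls. Its values at 24 h were 2.71, 2.75 and 2.64 with Aa, against 5.30, 3.47 and 3.96. For both genes the Aa and control arrays did not overlap at 48 h, at levels that were mostly under 4. Of all genes tested, 48.4% did not overlap at that time. ITGA10 is shown because its Aa mean at 48 h reached 4, which favours such a gap. COL11A1 is shown for its control mean at 24 h. COL4A4 had 3.41, 3.44 and 3.45 with Aa at 48 h, against 3.81, 4.95 and 3.46 in controls.

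The difference of the Aa effect between 48 h and 24 h passed for 0 members in limma's interaction test, with a lowest adjusted p of 0.101 and 3 members (7.14%) at an unadjusted p under 0.05, against 14.2% of all genes. Of all genes 0.825% passed, 0.741% up and 0.0834% down. With the block 5 members passed (11% of all genes did, 6.28% up and 4.68% down): COL1A1, ITGA3, COL7A1 and ITGAE with a more positive Aa effect at 48 h, and COL8A1 with a more negative one. For COL8A1 the difference was -0.71 (adjusted p 0.101 without and 0.0146 with the block), and for COL1A1 it was 1.20 (0.148 and 0.00704). The next smallest p without the block were those of LAMB3, with a difference of 0.67 (0.262), and COL4A5, with -1.17 (0.358).

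In control cells, 48 h against 24 h, 0 members passed without the block, with a lowest adjusted p of 0.0657 and 11 members (26.2%) at an unadjusted p under 0.05, against 16.7% of all genes. Of all genes 0.5% passed, 0.232% up and 0.269% down. With the block 6 members were higher and 7 lower at 48 h, against 8.69% and 9.09% of all genes (17.8% in either direction). COL6A1 had 9.47, 9.45 and 9.49 in controls at 48 h, against 9.86, 9.94 and 9.94 at 24 h, a change of -0.45 (0.0657 without and 0.00955 with the block). COL7A1 changed by -0.78 (0.1 and 0.00197), while ITGB8 changed by 0.78 (0.093 and 0.0034) and LAMB1 by 0.43 (0.15 and 0.0101). Aa against control at 48 h was opposite in sign to the control cells' change over time for COL7A1, ITGB8 and LAMB1. These comparisons share the control arrays at 48 h, which fixes part of that opposition.

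Of the 21 members with several probe sets past the filter, 17 had all their probe sets on the same side of 0 at 48 h, 14 at 24 h and 13 at both times. The probe sets disagreed at 48 h for ITGB5, LAMC1, ITGB4 and ITGB1BP1. At 24 h they disagreed for COL14A1, COL18A1, COL1A1, COL6A1, ITGB5, LAMC1 and ITGB1BP1. Both probe sets of COL8A1, COL8A2, COL4A1, COL7A1 and LAMB1 passed at 48 h in the same direction when each probe set was tested on its own.

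**Figure D3:**
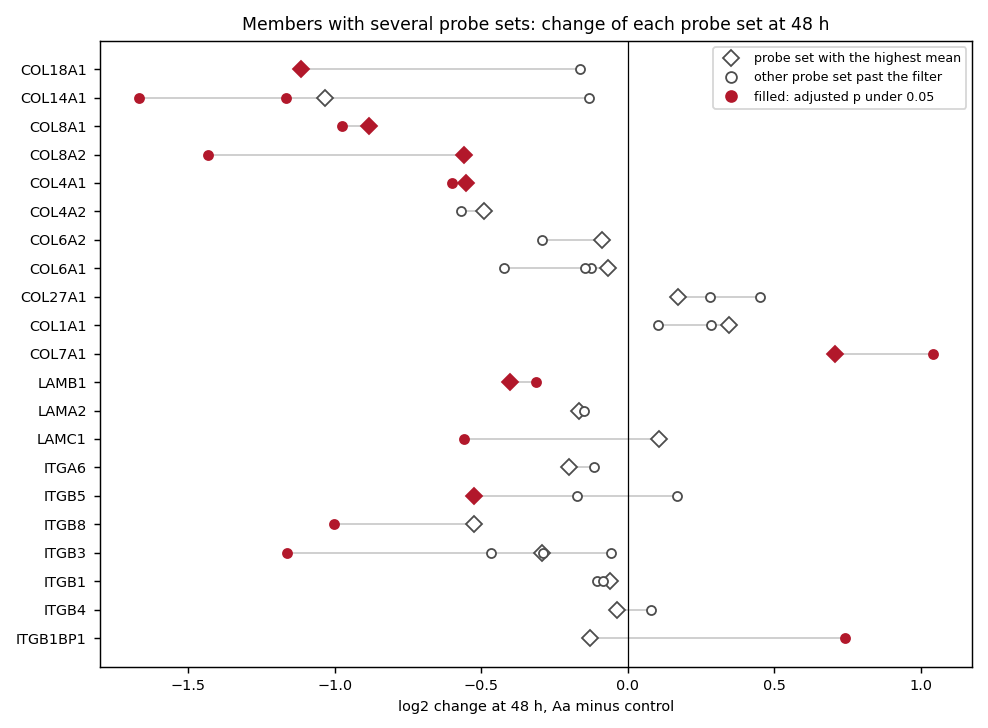
Log2 change at 48 h (Aa minus control, horizontal axis) of every probe set past the filter for the 21 members with more than 1; diamonds are the probe set used for the gene, and filled points have an adjusted p under 0.05 over all probe sets, where ITGB8's diamond misses it. COL8A1, COL4A1 and LAMB1 have their probe sets close together, and LAMC1, ITGB5, ITGB4 and ITGB1BP1 have points on both sides of 0.

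The members are long genes, with a median span in the annotation of 80.5 kb, against 30.4 kb over all genes tested. Among the 15 members over 100 kb, 8 fell, COL4A5 and ITGA2 among them, and 0 rose at 48 h, with a median change of -0.55. Of the 1924 genes of that length tested, 39.7% fell and the median was -0.34. In the 19 members between 30 and 100 kb, 2 fell and 3 rose (median -0.08), and in the 8 under 30 kb 1 fell and 0 rose (median 0.07). Of all genes between 30 and 100 kb 15.7% fell and 19.3% rose (median 0.02), and of those under 30 kb 15.8% fell and 20.9% rose (median 0.07). The members that rose, COL7A1, LAMB3 and ITGAE, span 31.3, 37.6 and 86.6 kb, and those with the largest falls, COL4A5 and COL22A1, span 258 and 326 kb. LAMA2, the longest member at 633 kb, changed by -0.17 at 48 h. The part of gene length in the members' changes was not tested.

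**Figure D4:**
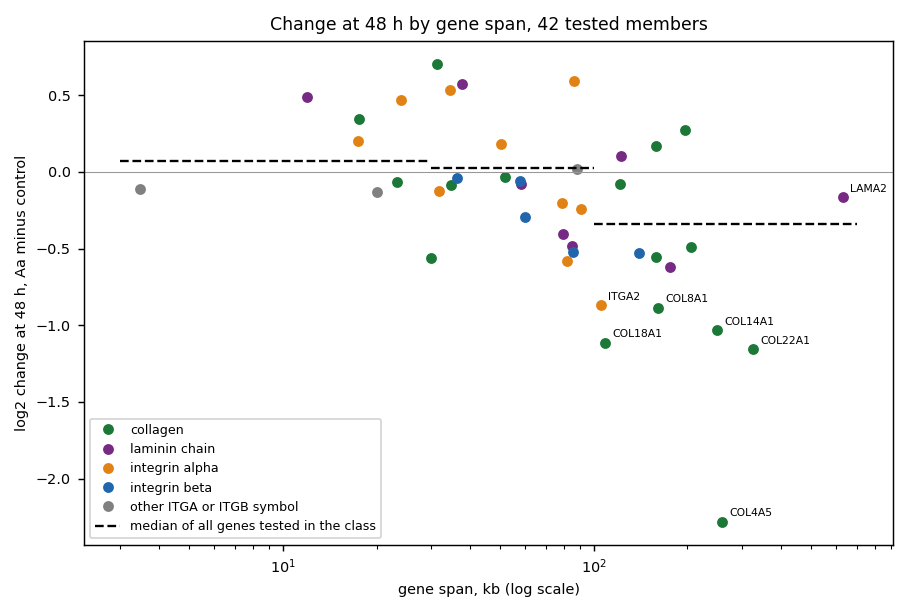
Log2 change at 48 h (Aa minus control) against gene span in kb (log axis) for the 42 tested members, coloured by class, with dashed lines at the median of all genes tested under 30 kb, from 30 to 100 kb and over 100 kb. Among members over 100 kb the 8 that fell lie below the dashed line at -0.34, and the 3 that rose are all under 100 kb.

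Genes that work with the members were counted in 6 lists. Of 26 tested genes that modify, process or export collagens, 8 fell and 2 rose at 48 h and 5 fell at 24 h, with medians of -0.31 and -0.16, and the block fit gave 14 down and 4 up at 48 h, 11 down at 24 h. The shares called were 38.5% of the list at 48 h and 19.2% at 24 h, near or below the 37.8% and 23.1% of all genes. SEC24D, a coat protein needed to export collagen from the endoplasmic reticulum, averaged 6.94 with Aa and 8.30 in controls at 48 h and fell by 1.36 ± 0.14 (adjusted p 9.45e-05). PCOLCE2, which helps cleave procollagen, fell by 1.02 ± 0.12 (0.000227), and P4HA1, a prolyl hydroxylase subunit, fell by 0.76 ± 0.14 (0.00235). SEC24D, PCOLCE2 and P4HA1 also fell at 24 h, by 0.75, 0.87 and 0.72. Without replicate 1 the adjusted p of P4HA1 was 0.0562 at 48 h and 0.0994 at 24 h. At 24 h that of SEC24D was 0.0508 without replicate 1 and 0.0674 without replicate 3, and that of PCOLCE2 was 0.0506 without replicate 3. The chaperone SERPINH1 and the hydroxylase partner P4HB did not pass.

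Of 14 other basement membrane genes tested, 6 fell and 1 rose at 48 h and 1 fell at 24 h, with medians of -0.49 and -0.34, and the block fit gave 9 down and 1 up at 48 h, 7 down and 1 up at 24 h. The share called was 50% of the list at 48 h, against 37.8% of all genes, and 7.14% at 24 h, against 23.1%. NID2, a nidogen that links laminin to collagen IV, averaged 8.29 with Aa and 9.57 in controls at 48 h and fell by 1.29 ± 0.18 (adjusted p 0.00045). PAPLN, the papilin gene, fell by 2.09 ± 0.32 (0.000713). TINAG, the tubulointerstitial nephritis antigen, fell by 1.18 ± 0.31 (0.0128), which did not hold without replicate 1 (0.157) or 3 (0.073). TINAGL1, a relative of TINAG, was the gene of the list that rose.

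Among 15 other matrix ligands of integrins, 3 fell and 2 rose at 48 h, and 4 fell at 24 h. EDIL3, a ligand of ITGAV receptors, averaged 6.11 with Aa and 8.78 in controls at 48 h and fell by 2.67 ± 0.19 (adjusted p 1.07e-05). Its fall was larger at 48 h than at 24 h, where it was 0.97, with a difference of -1.70 in the interaction test (adjusted p 0.0217), which did not hold without replicate 1 (0.434) or 3 (0.232) or without any of 8 single arrays (up to 0.0757). The fall of EDIL3 at 24 h did not pass without replicate 1 (0.0695) or 3 (0.0935). VCAM1, a ligand of ITGA4 receptors, fell by 1.40 ± 0.25 at 48 h (0.00165), and tenascin TNC fell by 0.47 ± 0.12 (0.00973), which did not hold without replicate 1 (0.117) or 3 (0.104). Fibronectin FN1 and osteopontin SPP1 did not pass. The shares called were 33.3% of the ligands at 48 h and 26.7% at 24 h, against 37.8% and 23.1% of all genes. The list medians were -0.05 at 48 h and -0.28 at 24 h, and the block fit gave 6 down and 5 up at 48 h. Of 7 tested receptors of collagens and laminins other than integrins, CD44 alone passed at 48 h (14.3%), none passed at 24 h, and with the block 2 rose at 48 h and 1 rose and 1 fell at 24 h. CD44 rose by 0.87 ± 0.21 (0.00846), which did not hold without replicate 1 (0.12) or 2 (0.0513). With the mean of its probe sets the change of CD44 was 0.32 (adjusted p 0.437). SDC1 changed by 0.13 ± 0.17 (0.587), and MRC2 changed by 0.55 (0.0913 without and 0.00314 with the block).

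Of 38 tested activators, adaptors and kinases of integrins, 14 passed at 48 h (9 down, 5 up) and 12 at 24 h (9 down, 3 up). These were 36.8% and 31.6% of the list, against 37.8% and 23.1% of all genes. The block fit gave 15 down and 9 up at 48 h. RSU1, a partner of the ILK complex at adhesions, fell by 1.27 ± 0.19 at 48 h (adjusted p 0.000584), and DOCK1, a guanine exchange factor for RAC, fell by 1.39 ± 0.24 (0.00144). RAP1A, a GTPase that switches integrins on, fell by 0.55 ± 0.09 with its brighter probe set (0.00121), but the mean of its probe sets gave 0.77 at 48 h and 1.31 at 24 h. Among 8 hemidesmosome and tetraspanin partners of laminin receptors, CD151 alone passed at 48 h (12.5%), with a fall of 1.03 ± 0.27 (0.0117) that did not hold without replicate 1 (0.096) or 3 (0.149). The block fit gave 2 down and 1 up at 48 h, 3 down and 2 up at 24 h, where none passed without it. CD9 changed by -0.34 ± 0.23 (0.264 without and 0.015 with the block). Plectin PLEC changed by 0.54 (0.137 without and 0.000333 with the block).

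**Figure D5:**
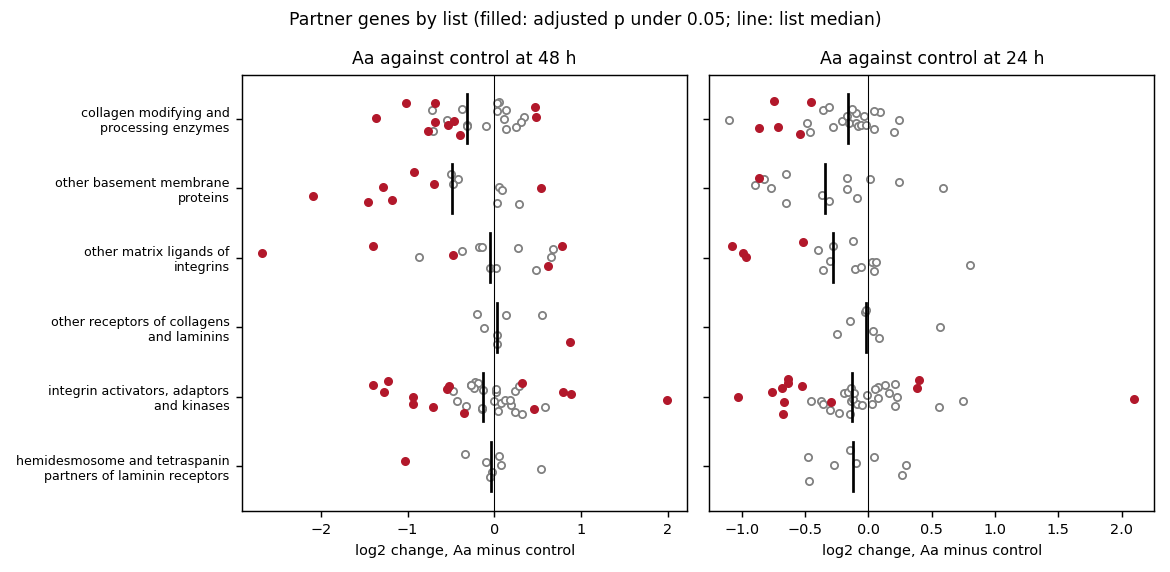
Log2 change (Aa minus control, horizontal axis) at 48 h (left) and 24 h (right) of each tested gene in the 6 lists of partner genes; filled points have an adjusted p under 0.05 and black lines are list medians. At 48 h the list medians run from -0.49 for other basement membrane proteins to 0.03 for other receptors, with EDIL3 farthest left at -2.67.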

How the data were processed

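The data are 12 one-colour arrays of HK-2 RNA, 3 for each of 4 groups. The authors normalised the arrays with GCRMA, per the submitters' processing notes, and deposited them as log2 values, as shown by their range from 0.817 to 16.2. The sources used here give neither the GCRMA version nor other steps. Of 54675 probe sets, the platform annotation gave 1 gene symbol to 41097, which were used, several symbols to 1801 and no entry to 11777. Symbols were brought to their current form through the gene identifiers for 41043 probe sets.

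A probe set was kept if its mean over the arrays reached 4, and each of the 10791 genes left was represented by its brightest probe set. The model had a mean for each group and used every array (limma 3.58.1, R 4.3.3, eBayes without trend, 8 residual and 2.76 prior degrees of freedom). P-values were two-sided and adjusted over all 10791 genes by the Benjamini-Hochberg method, with a threshold of 0.05, and errors of changes are standard errors from limma. The 4 contrasts were Aa minus control at each time, the difference between these effects, and control cells at 48 h against 24 h. Rose and fell are used of genes past the threshold. The code was tested on simulated data.

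The labels do not say whether equal replicate numbers belong together. After group means were subtracted, the 18 pairs of arrays with equal numbers correlated with r from 0.349 to 0.619 and the 36 other pairs with r from -0.49 to -0.0107, so the pairing was read from the data. A fit with the replicate number as a block was the main alternative, and its values stand beside a result where they change the call. Other alternatives covered the filter, the choice of probe set, normalisation, the eBayes options, the 6 arrays of each comparison alone and leaving out replicates.

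The members and the gene lists were chosen with earlier results of these data known. Chains of named assemblies stand beside their partners, and members whose probe sets disagree are named. Named were the members with the 12 smallest p at each time, the 4 smallest for each of the other contrasts and the 2 smallest at 48 h in each class. For each list of partner genes the 3 smallest p at 48 h were named, and TINAGL1 and the other list genes beyond these were chosen after their values were seen. Promoter windows were RefSeq's, on GRCh38.p14, and 59 of the 86 members had a window. Gene span is the distance from a gene's start to its end in the same annotation.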

Additional observations from a re-analysis of the deposited data

Results flagged for a closer look

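For 5 members the Aa effect differed between 48 h and 24 h by the interaction term of the fit with the replicate block, and for none of them in the fit without it. COL1A1 had a difference of 1.196 ± 0.163 (SE; adjusted p 0.00704 with and 0.148 without the block), from 0.35 at 48 h and -0.85 at 24 h. For COL8A1 it was -0.7107 (0.0146 and 0.101), from -0.89 at 48 h and -0.17 at 24 h. The second probe set of COL8A1 gave -0.98 at 48 h and -0.55 at 24 h. ITGA3 had a difference of 0.7224 (0.0319 and 0.545), from 0.53 and -0.19. COL7A1 (0.4538, adjusted p 0.0366 and 0.488) and ITGAE (0.3716, adjusted p 0.032 and 0.521) had changes above 0 at both times that were larger at 48 h.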

How the results depend on the processing

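Adding the replicate block raised the count of members called to 24 at 48 h, 20 at 24 h, 5 for the difference between times and 13 for control cells over time. In the block fit the lists counted 18 and 11 collagen enzymes (48 h and 24 h), 8 basement membrane genes at 24 h, 11 matrix ligands at 48 h, 2 other receptors at each time, 24 adaptors at 48 h, and 3 and 5 hemidesmosome and tetraspanin genes (48 h and 24 h). Of all genes, 54.8% passed in that fit at 48 h and 41.3% at 24 h. The blocked fit kept all 14 calls at 48 h and all 5 at 24 h. Without a filter 1 of 86 members passed in control cells over time, against 0.197% of all genes. At 24 h, 9 of 42 members had a probe set that passed when each was tested on its own, against 22.3% of all probe sets. A member with several probe sets had more than 1 way to be counted there. When probe sets with shared sequence were left out, 1 of 29 members passed at 24 h, against 25.6% of all genes. Quantile normalisation and centring of arrays each gave 2 basement membrane genes and 1 hemidesmosome or tetraspanin gene at 24 h. In these 2 fits 23.3% and 22.6% of all genes passed at 24 h. Leaving out replicates gave 5 to 13 members at 48 h, 0 to 7 at 24 h, 0 to 1 for the difference and 0 to 3 for control cells over time. The lowest counts, 5 and 0, came without replicate 1, and without single arrays they were 8 at 48 h (first control array) and 1 at 24 h (first control array). Without replicate 1, 14.4% of all genes passed at 48 h and 4.97% at 24 h, against 37.8% and 23.1% with every array. Without those single control arrays, 30.4% of all genes passed at 48 h and 16.3% at 24 h. Without probe sets of shared sequence ITGB5 turned to 0.1668 at 48 h and 0.437 at 24 h, and with the mean of its probe sets RAP1A turned to 0.7676 at 48 h and 1.31 at 24 h. Over 205 pairs of a gene and a comparison there were 4994 alternative values. Of these, 176 lost a call, 93 gained one and 4 turned in sign from a called value. The other 4721 were counted as unchanged. They include values of uncalled genes that turned in sign, such as COL14A1 and LAMC1 at 24 h. The cause of these shifts was not tested, except that fewer arrays or genes were tested in the fits that leave some out. The 6-array fit does not apply to the difference between times. Counting only members with both group means at 4 or more, a choice made after seeing the data, gave 12 at 48 h and 5 at 24 h. Members under the filter were dim on these arrays and were not tested.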

Other observations

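In the RefSeq windows, read over the 250 bases before and 50 after each start, GGGCGG stood in 72.4% of the 29 tested members with a window, against 48.3% of all 27305 genes with one. CCAAT stood in 27.6% of these members, against 39.7% of all genes. The TATA-type word TATAAA stood in 17.2%, against 14%, and the AP-1 word TGANTCA in 6.9%, against 9.37%. These are counts of letters on both strands, with no test. The 29 members had passed the filter, whereas the 27305 genes were taken without it, so the 2 sets are unlike. The Aa changes of all genes in each same-number pair were regressed on their mean change in the other pairs of that time. The slope was lower for replicate 2 (0.721 at 48 h and 0.647 at 24 h) than for replicates 1 and 3 (1.01 to 1.10 at 48 h and 1.06 at 24 h).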
